A study of Mus musculus with 34 samples.

Results

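The 88 genes described here are the cytosolic ribosomal protein genes and their close namesakes. They were taken by symbol from the 14107 genes of a mouse expression table: every symbol that begins with Rpl or Rps followed by a digit, and Rpsa, Rplp0, Rplp1 and Rplp2. Symbols ending in -ps with a number, which mark processed pseudogenes, and the S6 kinase genes were left out. Of the 88, 77 encode standard subunit proteins, 46 of the large and 31 of the small subunit. The other 11 carry the symbol of a paralog, a retrocopy or a binding partner, namely Rpl22l1, Rpl36al, Rpl37rt, Rpl6l, Rpl7l1, Rps12l1, Rps19bp1, Rps27l, Rps27rt, Rps3a2 and Rps3a3. The rule reads the symbol and no expression value.

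The cytosolic ribosome is built from a small subunit, which decodes the mRNA, and a large subunit, which joins amino acids. Each subunit is a scaffold of ribosomal RNA with a set of small, basic proteins that are needed in equal numbers, so their genes are among the most strongly transcribed in growing cells. Growth signals through the ERK and mTOR pathways raise ribosome production, and the mRNAs of these proteins begin with a run of pyrimidines, the TOP tract, through which their translation is controlled.

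The data came from 3 mouse colorectal cancer lines named NaJa-D, -F and -G, and the design asks how each line responds to a BRAF inhibitor after a short and a longer exposure. All groups shared the genotype VillinCreERT2::BrafV600E/+::Trp53R172H::APCdel on strain C57BL/6N, in which Cre under the villin promoter acts in intestinal epithelium. The lines were grown from peritoneal lavage of individual recipient mice, all given organoids of the same donor, so each line is a single derivation. Cells received 0.5 µM encorafenib, an inhibitor of mutant BRAF, or the solvent DMSO, for 1 day or 5 days. There were 34 libraries in 12 groups of line, treatment and day, with 3 libraries in each but 2 in the encorafenib group of NaJa-F at day 5 and the DMSO group of NaJa-G at day 5. Controls were given fresh medium with DMSO on the schedule of the drug, at day 0 and, for the longer exposure, also on days 2 and 4.

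Total counts per library ranged from 46007050 to 80121299. All 9 epithelial markers tested were present, with a summed level of 2660 to 11300 CPM (counts scaled to library size with TMM factors). Of other cell types, 2 of 8 immune markers (Cd68 and Csf1r, together 3.64 to 10.2 CPM), 1 of 3 endothelial markers (Kdr, 0.164 to 1.36 CPM) and 0 of 3 erythroid markers were in the table. The 3 of 4 mesothelial markers in it, Msln, Lrrn4 and Upk3b, summed to 497 to 3520 CPM, and Wt1 was absent. The authors report that host cells were lost over passages, judged by the wild-type Apc product in PCR. The epithelial sum was higher with drug in all 6 pairs of groups without overlap, for example 3390 to 4220 CPM in DMSO and 5230 to 5380 CPM in encorafenib in NaJa-G at day 1, and 6730 to 7380 against 8680 to 9180 CPM in NaJa-D at day 5. The mesothelial sum was also higher in all 6, for example 1240 to 1510 CPM in DMSO and 2600 to 3520 CPM in encorafenib in NaJa-D at day 1, and 558 to 724 against 1330 to 1520 CPM in NaJa-G. In NaJa-D at day 5, where the ribosomal protein genes were not called, it was 1220 to 1450 against 2210 to 2860 CPM. The immune pair was also higher with drug in all 6, for example 5.74 to 6.66 against 7.83 to 9.21 CPM in NaJa-D at day 1. The part of these markers in the results below was not tested. For NaJa-D DMSO day 1 replicate 3, title and cell line entry disagree, the latter naming NaJa-G. The title was followed. The epithelial sum of its group, this library included, was 7540 to 8080 CPM, beside 3390 to 4220 CPM in NaJa-G DMSO day 1. The library's level of Rpl34 was 160 CPM, beside 178 and 167 CPM in the other 2 libraries of its group and 302 to 361 CPM in NaJa-G DMSO day 1. Rpl34 was picked from line comparisons that already counted this library as NaJa-D.

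Every one of the 88 genes passed the filter on low counts and exceeded 1 CPM in at least 2 libraries. Among the 77 standard genes the median level was 459 CPM per kb of transcript, and 859 CPM per kb of coding sequence. Per kb of transcript the highest mean levels were those of Rplp0 (2150 CPM per kb), the base of the acidic stalk that recruits elongation factors, Rplp1 (1650 CPM per kb), its dimer-forming partner, and Rps2 (1200 CPM per kb), a protein near the mRNA entry site. By coding length the highest was Rpl41 (7250 CPM per coding kb), which encodes the smallest ribosomal protein. The lowest of all 88 were Rpl24 (1.11 CPM per kb), Rps3a3 (2.29 CPM per kb) and Rps3a2 (3.39 CPM per kb), the last 2 annotated as processed pseudogenes.

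These levels are uncertain for a stated reason. Of all 50-base stretches of a member's transcript, a median of 52.35% also occurred in another annotated gene, and 46 of the 88 shared at least 50%. Rpl24 shared 81.7%, Rps27 98.6% and Rps12l1 100%, so reads of such genes could be split, moved or dropped by the counting, which is not stated. Rpl24 was the exception among the standard genes, at 1.6 CPM per coding kb, while the other 76 were all above 100. Across the 77 genes, level per length and the shared percentage had a Spearman rho of 0.17, a description over genes of the same libraries.

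The start of the transcript was read from RefSeq for 57 of the 77 standard genes, in 67 windows on GRCm38.p6. The other 20, Rps14 and Rpl17 among them, were not searched, whether or not RefSeq holds their start. A run of at least 7 pyrimidines that begins with C within 20 bases of the start was present in 34 of the 67 windows (50.7%), and in 6669 of the 32851 windows of all genes (20.3%). The ETS-type motif CCGGAAG, searched on both strands over the 300 bases of the promoter window, was present in 25 of the 67 (37.3%) and in 2910 of all windows (8.9%). Shown are 30 bases around the start, 15 before it and 15 from it, for 5 genes with the tract, which is in capitals, and 2 without it whose values are followed below. They lie at chr4:86857353-86857382 (minus strand, Rps6), chr2:39005117-39005146 (minus, Rpl35), chr7:109519180-109519209 (plus, Rpl27a), chr17:33955651-33955680 (minus, Rps18), chr3:90213634-90213663 (minus, Rps27), chr5:115559452-115559481 (plus, Rplp0) and chr1:72711245-72711274 (plus, Rpl37a). A match is a description of letters in the window only.
Rps6: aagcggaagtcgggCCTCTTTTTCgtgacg
Rpl35: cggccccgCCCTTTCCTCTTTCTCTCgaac
Rpl27a: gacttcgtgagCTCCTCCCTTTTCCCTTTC
Rps18: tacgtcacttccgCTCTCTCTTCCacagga
Rps27: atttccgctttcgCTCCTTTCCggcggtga
Rplp0: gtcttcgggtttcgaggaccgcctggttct
Rpl37a: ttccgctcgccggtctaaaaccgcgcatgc

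The first question was what encorafenib did to these transcripts. Together the 88 genes took 3.87%, 3.70% and 3.50% of all counts in the 3 NaJa-D DMSO day 1 libraries and 2.57%, 2.56% and 3.01% in the encorafenib libraries of that day. In NaJa-G the day 1 shares were 5.33%, 4.65% and 4.74% in DMSO and 3.28%, 3.20% and 3.28% in encorafenib, and at day 5 they were 3.77% and 4.40% against 2.88%, 2.83% and 2.78%. The groups did not overlap in any of these 3 pairs. In NaJa-F the shares were 4.65%, 4.77% and 4.55% in DMSO against 3.97%, 4.18% and 4.07% at day 1, and 4.20%, 4.15% and 4.20% against 3.54% and 3.79% at day 5, again without overlap. NaJa-D at day 5 was the exception, with 3.26%, 3.51% and 3.84% in DMSO and 3.37%, 3.47% and 3.39% in encorafenib, where the drug libraries lay inside the range of the controls. In bulk RNA, fewer cells of a type and less RNA per cell cannot be told apart, and a share is relative to all other transcripts.

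**Figure D1:**
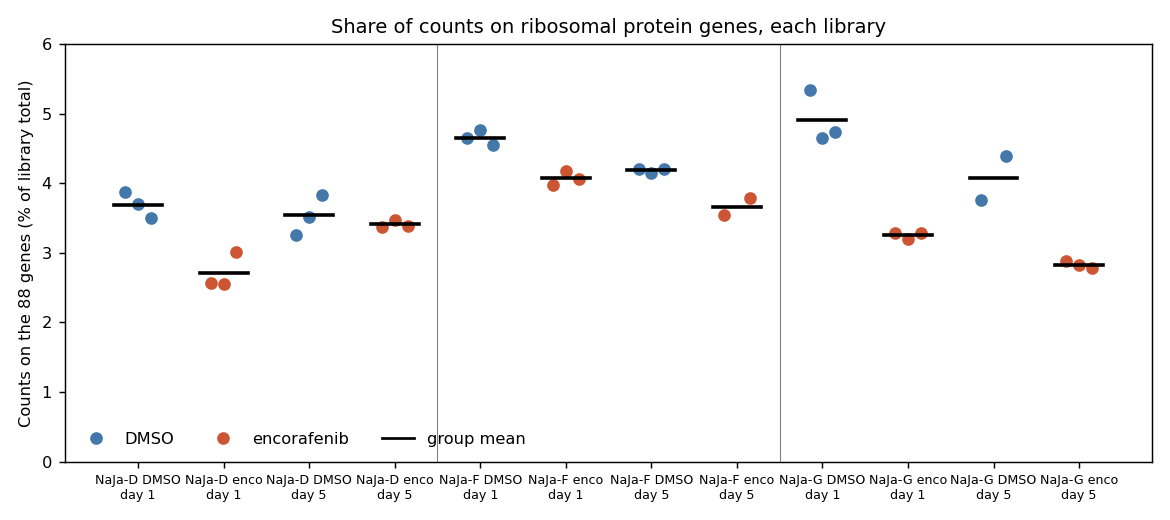
Percent of all counts on the 88 genes (y axis) in each of the 34 libraries, by line, day and treatment (x axis), with the group mean as a line. The encorafenib points lie under the DMSO points in every pair except NaJa-D day 5, and NaJa-D encorafenib day 1 replicate 3 lies at 3.01%, above 2.57% and 2.56%.

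Tested gene by gene, the 88 genes moved down together in NaJa-D at day 1 and in NaJa-G on both days, and mostly failed the test in NaJa-F. A gene was called where its limma-voom p, adjusted by Benjamini and Hochberg across the 14107 genes, was below 0.01. In NaJa-D at day 1, 85 of the 88 were lower and 0 higher, beside 21.2% lower and 23.7% higher of all genes, and the median log2 fold change was -0.53, or 69.1% of the DMSO level. In NaJa-G, 78 were lower at day 1 (all genes 28.7%, median of the 88 -0.57) and 74 at day 5 (all genes 24.7%, median -0.50), and 0 were higher, where all genes had 35.3% and 28.5% higher. Over all genes the 6 medians lay between -0.02 and 0.04.

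In NaJa-F, 6 genes were lower at day 1, beside 12% of all genes, and 5 at day 5, beside 8.5%, both near the background in this fit. Other settings called more, with 37 and 29 when only the groups compared were fitted, 26 and 17 with scaling by library size alone, and 31 and 28 at an adjusted p below 0.05. The shares of all genes under these other settings are not at hand, so no excess over all genes is shown by them. No member was higher there, where all genes had 17.5% and 9.7% higher. The medians were -0.19 and -0.20 on the log2 scale, and 88 and 85 of the 88 estimates were negative. In NaJa-D at day 5, 0 of 88 were called in either direction, where all genes had 14.7% lower and 18.3% higher, and the median was -0.07. There limma-voom gave 8 of the 88 an unadjusted p below 0.05, beside 50.7% of all genes, the smallest adjusted p was 0.0314, and edgeR, DESeq2 and limma-trend also called 0.

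Looking only at whether libraries overlapped gave a wider picture than the test. All encorafenib libraries lay below all DMSO libraries for 87 of the 88 genes in NaJa-D at day 1 (26.1% of all genes), 83 in NaJa-G at day 1 (33.5%) and 85 at day 5 (35.4%). In NaJa-F the same held for 72 genes at day 1 (29.1%) and 70 at day 5 (27.3%), although few passed the test. In NaJa-D at day 5 it held for 13 (24.7%).

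**Figure D2:**
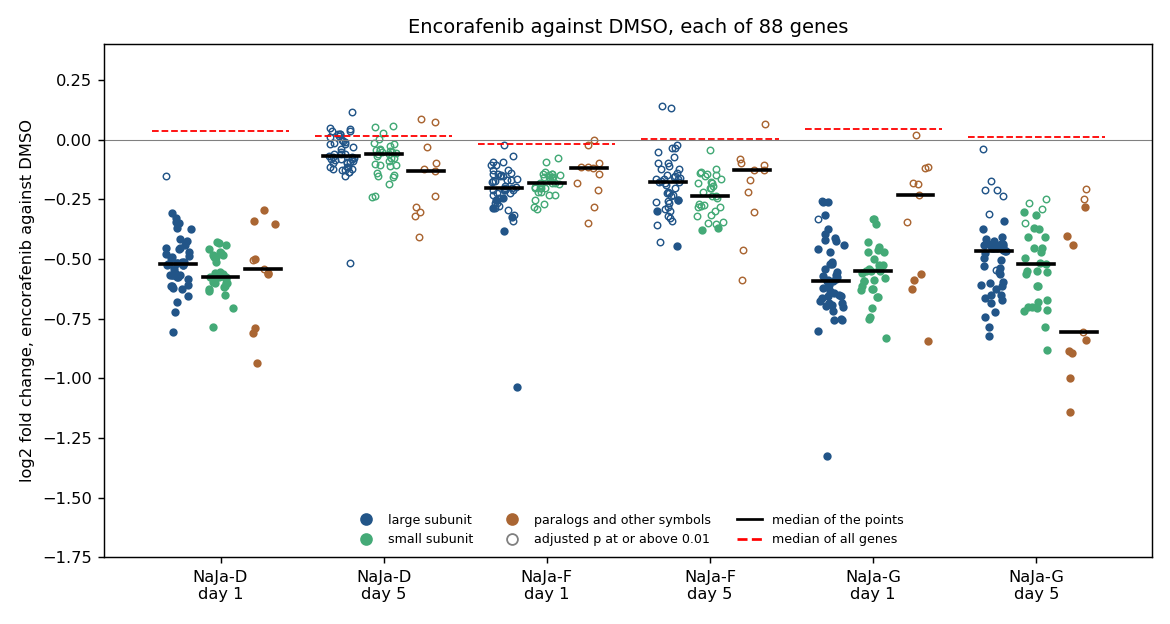
log2 fold change of encorafenib against DMSO (y axis) for each of the 88 genes in the 6 comparisons of line and day (x axis). Filled points were called, open points were not, black bars are the medians of the points and red dashed lines the median of all genes. NaJa-D day 1 and both days of NaJa-G sit near -0.5, NaJa-F near -0.2 and NaJa-D day 5 near 0.

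Transcripts of these genes are short, with a median length of 857.5 bases beside 2860 for all genes, and a length trend in a library moves them as a block. The mean log2 transcript length of the counts was 11.587 to 11.591 in NaJa-D DMSO day 1 and 11.607 to 11.661 in encorafenib. In NaJa-G it was 11.483 to 11.528 against 11.559 to 11.588 at day 1 and 11.609 and 11.670 against 11.693 to 11.699 at day 5, so it moved with the treatment in these pairs. After a length trend was removed from each library, 53, 70 and 40 genes stayed lower in NaJa-D day 1 (all genes 22.1%), NaJa-G day 1 (27.9%) and NaJa-G day 5 (23.5%), with medians of -0.34, -0.49 and -0.29. In NaJa-F 2 and 0 were lower (all genes 12.3% and 8.65%), and in NaJa-D day 5 there were 2 (14.7%).

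Large and small subunit genes gave close medians. In NaJa-D at day 1 the medians were -0.52 for 46 large and -0.58 for 31 small subunit genes, of which 45 and 31 were lower. In NaJa-G at day 1 they were -0.59 and -0.55, with 44 and 30 lower, and at day 5 -0.47 and -0.52, with 39 and 27 lower. Genes with and without a pyrimidine tract found near an annotated start gave close medians as well. The search read annotated starts only, so a gene without a match may still carry the tract. In NaJa-D at day 1 the 32 genes with a tract had a median of -0.55 and the 25 without it -0.56, and in NaJa-G at day 1 both medians were -0.59. Rps6, with the tract shown above, and Rplp0 and Rpl37a, without it, were all lower in NaJa-D at day 1. The 9 standard genes with under 20% shared sequence had a median of -0.58 in NaJa-D at day 1, -0.53 in NaJa-G at day 1 and -0.53 at day 5, and all 9 were lower each time.

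Rps6, the small subunit protein phosphorylated by the S6 kinases, shows the pattern in single libraries. Its level in NaJa-D day 1 was 366, 359 and 350 CPM in DMSO and 219, 223 and 287 CPM in encorafenib. The groups did not overlap, the third encorafenib library was nearest to the controls, and the log2 fold change was -0.57 ± 0.082 (SE, 3 against 3 libraries; limma-voom adjusted p 1.2e-06). At day 5 the line had 273, 313 and 330 CPM in DMSO and 291, 293 and 297 CPM in encorafenib, which overlapped. In NaJa-G at day 1 it was 485, 396 and 391 against 287, 267 and 287 CPM (-0.59 ± 0.0843), and at day 5 347 and 397 against 253, 243 and 232 CPM (-0.61 ± 0.0937), both lower. NaJa-F had 414, 441 and 396 against 356, 374 and 373 CPM at day 1, a gap without overlap that did not pass the test.

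The acidic stalk, which binds the elongation factors, was among the more variable parts. Rplp0 was 4030, 3930 and 3730 CPM in NaJa-D DMSO day 1 and 2360, 2370 and 3290 CPM in encorafenib, and fell by 0.56 on the log2 scale (SE 0.112). In NaJa-G day 1 it was 3480, 2580 and 2630 against 2410, 2360 and 2420 CPM. These groups did not overlap, but the log2 fold change of -0.26 ± 0.113 was not called. At day 5 Rplp0 was lower in NaJa-G (-0.43 ± 0.123), as were Rplp1 (-0.50 ± 0.134) and Rplp2 (-0.82 ± 0.138), which form the dimers of the stalk. Rplp1 and Rplp2 also fell in NaJa-D day 1 (-0.61 ± 0.118 and -0.63 ± 0.122) and in NaJa-G day 1 (-0.42 ± 0.122 and -0.58 ± 0.126). None of the 3 was called in NaJa-F or in NaJa-D at day 5.

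Rpl5 and Rpl11, which carry the 5S RNA into the large subunit and can bind Mdm2, fell in the same 3 comparisons. Rpl5 was 1140, 1020 and 1060 CPM in NaJa-D DMSO day 1 against 702, 723 and 868 CPM, and 941, 823 and 843 CPM in NaJa-G DMSO day 1 against 603, 545 and 581 CPM, each without overlap. Its log2 fold changes were -0.49 ± 0.07 and -0.59 ± 0.0701, and those of Rpl11 were -0.46 ± 0.078 and -0.54 ± 0.0801. In NaJa-G at day 5 Rpl5 fell by 0.44 and Rpl11 by 0.41 on the log2 scale.

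Next are members of the small subunit with known roles in assembly and mRNA binding. Rps19, needed to mature the small subunit RNA and mutated in Diamond-Blackfan anaemia, was lower in NaJa-D day 1 (-0.49 ± 0.0811), NaJa-G day 1 (-0.43 ± 0.0826) and NaJa-G day 5 (-0.37 ± 0.0911). Rps3, at the mRNA entry channel, was lower in these too (-0.62 ± 0.0893, -0.59 ± 0.0911 and -0.47 ± 0.101). Rps14, another assembly protein, was lower in NaJa-D and NaJa-G at day 1 (-0.58 ± 0.102 and -0.47 ± 0.106), and its value of -0.35 ± 0.116 in NaJa-G at day 5 was not called. Rpsa, the laminin receptor homologue of the small subunit, was called in NaJa-D at day 1 only (-0.46 ± 0.11), with -0.33 ± 0.116 and -0.29 ± 0.127 in NaJa-G. Rps27a, made as a fusion to ubiquitin, was lower in NaJa-D day 1 (-0.43 ± 0.076) and NaJa-G on both days (-0.66 ± 0.0787 and -0.37 ± 0.0865).

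Rpl10a, the protein of the L1 stalk of the large subunit, was the gene most often called. Its level was 434, 456 and 483 CPM in NaJa-F DMSO day 1 and 352, 354 and 344 CPM in encorafenib, without overlap (-0.38 ± 0.0613, limma-voom adjusted p 9.48e-06). In NaJa-G day 1 it was 523, 514 and 523 against 338, 322 and 331 CPM (-0.65 ± 0.0614), and in NaJa-D day 1 it was 414, 454 and 422 against 324, 321 and 320 CPM (-0.42 ± 0.0598). It was called in 5 of the 6 comparisons, all except NaJa-D day 5, where 424, 438 and 442 CPM faced 377, 398 and 420 CPM. Here the third NaJa-D library of day 1 did not stand apart from the other 2. Rpl23, the exit tunnel protein Rpl26, and Rpl38, known for a role in translating Hox mRNAs, were lower in NaJa-D day 1 (-0.52, -0.58 and -0.52). All were lower in NaJa-G day 1 too (-0.61, -0.63 and -0.59). They were lower in NaJa-G at day 5 as well, by 0.61, 0.34 and 0.56 in that order, but the value of Rpl26 there turned to 0.008 after the length correction described above.

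The most negative called values in NaJa-D at day 1 belonged to Rps27rt (-0.94 ± 0.24), Rps3a3 (-0.81 ± 0.248) and Rpl37a (-0.80 ± 0.0832). Rps27rt, an intronless copy of Rps27, was at only 1.76, 1.71 and 1.60 CPM in DMSO and 0.948, 0.942 and 0.752 CPM in encorafenib, and shared 91.1% of its sequence. Rpl37a, a zinc-binding large subunit protein, was at 290, 307 and 291 CPM in DMSO against 154, 163 and 193 CPM. It was also among the 6 genes lower in NaJa-F at day 1 (299, 312 and 275 against 233, 244 and 230 CPM; -0.32 ± 0.0855), with Rpl37, Rpl24, Rpl10a, Rpl34 and Rpl36a. Rpl24 had the most negative estimate there and in NaJa-G at day 1 (-1.04 ± 0.282 and -1.32 ± 0.291), but from 0.72, 0.727 and 1.08 CPM to 0.402, 0.471 and 0.346 CPM in NaJa-F. At such levels, and with mostly shared sequence, its own reads and those of its copies cannot be told apart.

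In NaJa-G at day 1 the most negative after Rpl24 were Rps19bp1 (-0.84 ± 0.0858), a binding partner of Rps19 that is no subunit protein, and Rps18 (-0.83 ± 0.0805), a protein of the head of the small subunit. Rps18 was 966, 795 and 818 CPM in DMSO and 480, 482 and 480 CPM in encorafenib. At day 5 in this line they were Rps27rt (-1.14 ± 0.194), Rps3a3 (-1.0 ± 0.177) and Rpl6l (-0.89 ± 0.215), all copies below 5 CPM. In NaJa-F at day 5 the 5 lower genes were Rpl31, Rpl10a, Rpl41 (-0.45 ± 0.113), Rps23 (-0.38 ± 0.0906) and Rps28 (-0.37 ± 0.0909). Rps23, a protein of the decoding centre, was 408, 392 and 396 CPM in DMSO and 304 and 310 CPM in the 2 encorafenib libraries.

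**Figure D3:**
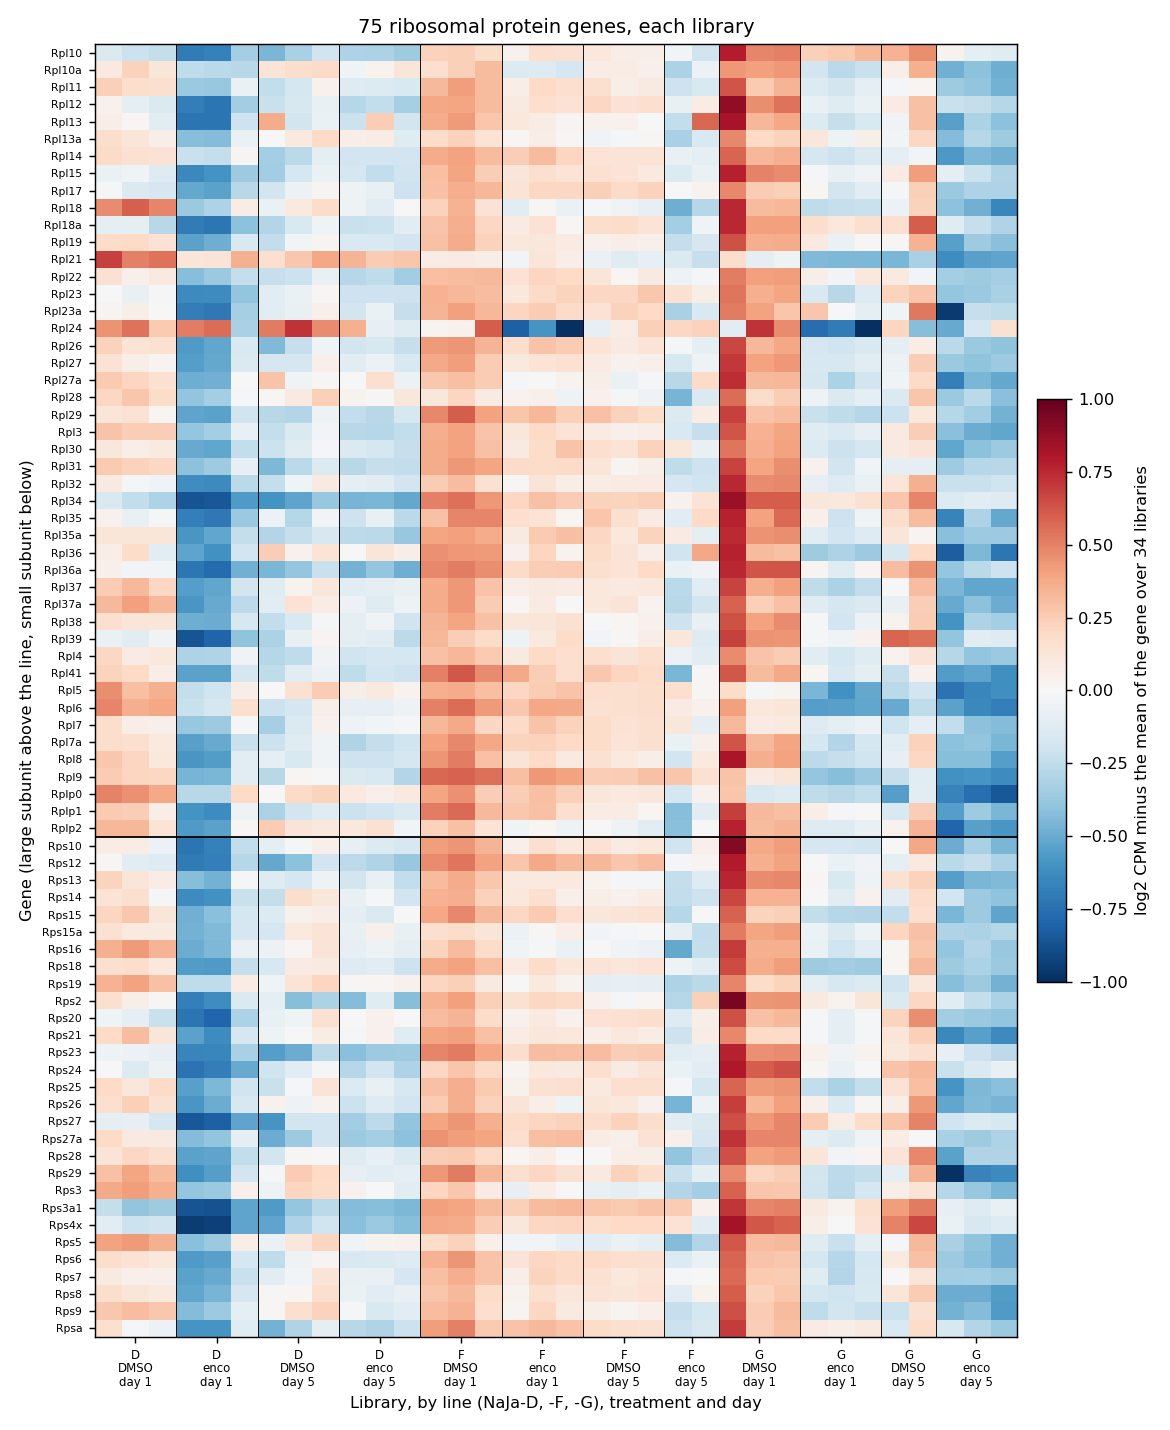
log2 CPM of 75 of the 77 standard genes (y axis) in the 34 libraries (x axis), each minus the mean of the gene over all libraries, red above and blue below it. The first 2 libraries of NaJa-D encorafenib day 1 and the NaJa-G encorafenib day 5 libraries are blue for most genes, NaJa-G DMSO day 1 replicate 1, with a share of 5.33%, is the reddest column, and Rpl24 departs from the rest.

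The paralogs are set beside their partners. Rps27l, a paralog of Rps27 that p53 can induce, was 79.3, 75.6 and 78.1 CPM in NaJa-D DMSO day 1 and 48, 50.5 and 60.5 CPM in encorafenib (-0.56 ± 0.0681), close to Rps27 itself (-0.61 ± 0.0826). In NaJa-F at day 1 Rps27l was 79.4, 81.8 and 80.7 CPM in DMSO and 77.5, 79 and 85 CPM in encorafenib, overlapping. In NaJa-G at day 1 it was 91.3, 78.2 and 79.9 against 75.3, 67.7 and 76.7 CPM (-0.18 ± 0.0665, not called), where Rps27 was lower (-0.35 ± 0.0856). The difference of the Rps27l response from that of NaJa-D was itself called, at 0.56 ± 0.095 for NaJa-F and 0.38 ± 0.0952 for NaJa-G at day 1. The difference between Rps27l and Rps27 within a line was not tested.

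Rpl22l1, the paralog of Rpl22, was 15.8, 16.9 and 18.4 CPM in NaJa-D DMSO day 1 and 13.1, 12.6 and 14.2 CPM in encorafenib (-0.35 ± 0.101). Rpl22 was lower in that comparison (-0.44 ± 0.05) and on both days of NaJa-G (-0.40 ± 0.0512 and -0.38 ± 0.0565), where Rpl22l1 had -0.23 ± 0.082 and -0.25 ± 0.0934 and was not called. The difference between these 2 genes was not tested either. Rpl7l1, a nucleolar homologue of Rpl7, fell in NaJa-D day 1 (-0.50 ± 0.0666), NaJa-G day 1 (-0.63 ± 0.0671) and NaJa-G day 5 (-0.28 ± 0.0745), and Rpl36al, a retrocopy of Rpl36a that is itself expressed, in these 3 as well (-0.34 ± 0.0733, -0.56 ± 0.0725 and -0.40 ± 0.082). Of the 11 atypical genes, 9 were lower in NaJa-D day 1, 4 in NaJa-G day 1 and 8 in NaJa-G day 5, beside 21.2%, 28.7% and 24.7% of all genes. The 84 genes with -ps symbols, kept apart, had 38, 2 and 67 lower in the same order, with medians of -0.82, -0.11 and -0.97.

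**Figure D4:**
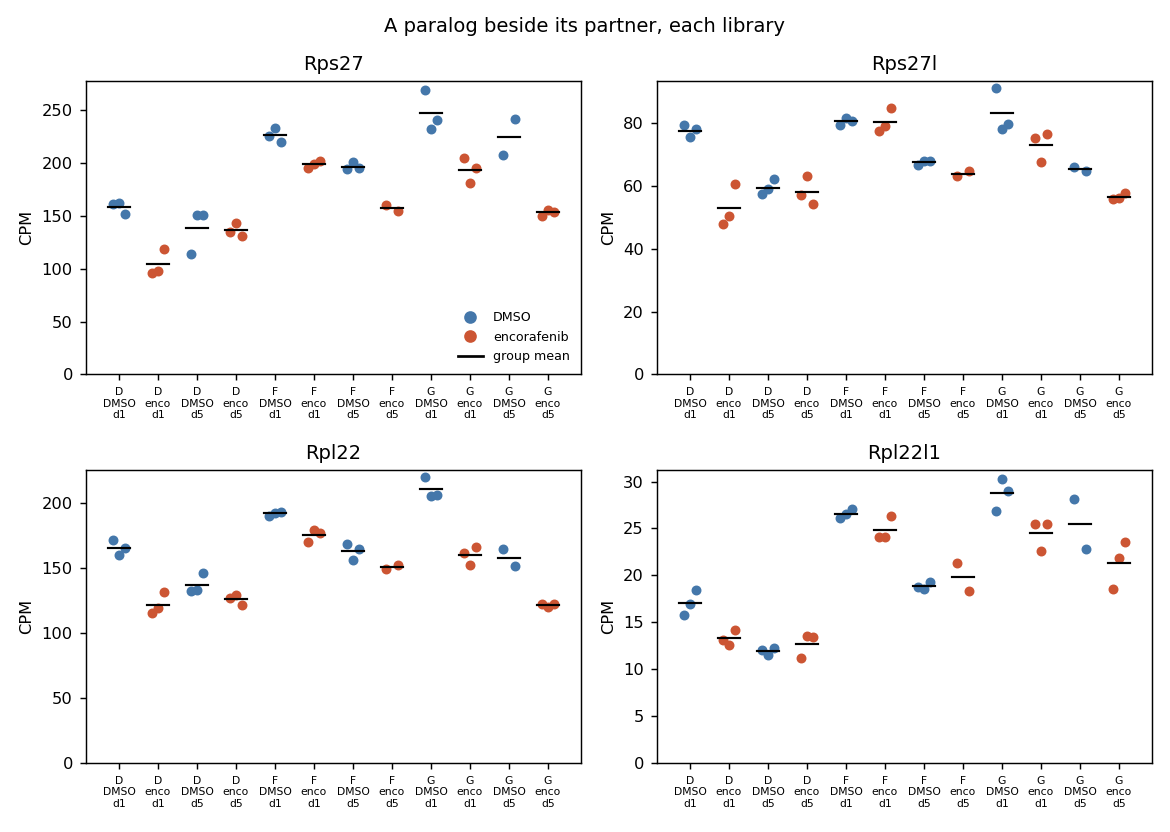
CPM (y axis, from 0) of Rps27, Rps27l, Rpl22 and Rpl22l1 in each library, by line, treatment and day (x axis), with group means as lines. Rps27l overlaps between treatments in NaJa-F day 1, and in NaJa-D day 1 all 4 genes are lower in encorafenib.

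Other genes of protein synthesis are given as background. In NaJa-D day 1, NaJa-G day 1 and NaJa-G day 5, 21.2%, 28.7% and 24.7% of all genes were lower and 23.7%, 35.3% and 28.5% higher. In NaJa-D day 5, NaJa-F day 1 and NaJa-F day 5, 14.7%, 12% and 8.5% were lower and 18.3%, 17.5% and 9.7% higher. Of ribosomal proteins whose symbols lie outside the rule, Rack1 (-0.48 ± 0.0778) and Fau (-0.41 ± 0.113) were lower in NaJa-D day 1, and Rack1 was lower on both days in NaJa-G (-0.64 ± 0.0802 and -0.53 ± 0.0893). Of 15 other genes with known TOP mRNAs, mostly translation factors, 14, 10 and 8 were lower in NaJa-D day 1, NaJa-G day 1 and NaJa-G day 5. The numbers were 4, 3 and 3 in NaJa-D day 5, NaJa-F day 1 and NaJa-F day 5. Pabpc1, the poly(A) binding protein, fell by 0.84 and Eef2, the translocation factor, by 0.46 on the log2 scale in NaJa-D day 1. Of 25 ribosome biogenesis genes, 22 were lower in NaJa-D day 1 (median -0.48) and 25 in NaJa-G day 1 (median -1.18). Of the same 25, 17 were lower in NaJa-D day 5 (median -0.35), 18 in NaJa-F day 1 and 12 in NaJa-F day 5, and 22 in NaJa-G day 5. Polr1b, a subunit of RNA polymerase I, fell by 1.75 and Myc by 1.23 in NaJa-G day 1. Of 10 genes that regulate TOP mRNAs or mTOR, 1 to 4 were lower and 1 or 2 higher in each comparison.

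The mitochondrial ribosome is made from other genes. Of 77 of these, 36 were lower in NaJa-D day 1, 44 in NaJa-G day 1 and 39 in NaJa-G day 5, with medians of -0.26, -0.34 and -0.28, and 5, 11 and 4 in NaJa-D day 5, NaJa-F day 1 and NaJa-F day 5. Of 74 respiratory chain subunits, also short and highly expressed, 27, 4 and 18 were lower in the first 3 and 2, 18 and 2 higher. Their medians were -0.19, 0.08 and -0.16. In the other 3 comparisons 0, 0 and 1 were lower and 3, 3 and 0 higher. The shares of all genes in these comparisons are given in the paragraph above.

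The next question was how the lines differ without drug, taken as the mean of both days in DMSO. More of these transcripts were higher than lower in NaJa-F and NaJa-G against NaJa-D. Against NaJa-D, 47 of the 88 were higher and 4 lower in NaJa-F (all genes 32.6% and 29%), and 55 were higher and 4 lower in NaJa-G (all genes 33.3% and 34.1%), with medians of 0.22 and 0.26. NaJa-G against NaJa-F gave 16 higher and 7 lower (all genes 25.2% and 29.2%), with a median of 0.08. After the length correction 38, 41 and 13 were higher (all genes 32.7%, 34.7% and 27.1%). Libraries lay apart for fewer genes, 22, 20 and 6 higher and 1, 0 and 0 lower in the same order, with no share of all genes at hand. At day 5 in DMSO the 88 genes took 3.26% to 3.84% of counts in NaJa-D and 3.77% to 4.40% in NaJa-G, which overlapped. In DMSO at day 1 the epithelial markers summed to 7540 to 8080 CPM in NaJa-D, 5560 to 6290 CPM in NaJa-F and 3390 to 4220 CPM in NaJa-G. The mesothelial markers summed to 1240 to 1510, 743 to 985 and 558 to 724 CPM in this order, and mitochondrially encoded genes took a mean of 7.09%, 3.67% and 4.33% of counts. The part of these values in the line differences was not tested. These 3 comparisons share their control libraries with each other and with the encorafenib tests.

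Rpl34, a large subunit protein, was 178, 167, 160, 131, 137 and 153 CPM in the 6 NaJa-D DMSO libraries, 231 to 290 CPM in NaJa-F and 240 to 361 CPM in NaJa-G. NaJa-D lay below both other lines without overlap (0.73 ± 0.0504 and 0.90 ± 0.0539), and NaJa-F and NaJa-G overlapped (0.17 ± 0.0548, called). Rps3a1, a small subunit protein, and Rpl22l1 had a like order, with 0.69 ± 0.0557 and 0.65 ± 0.0676 for NaJa-F against NaJa-D, then 0.89 ± 0.0598 and 0.92 ± 0.0693 for NaJa-G. Rpl21 went the other way, at 834 to 1190 CPM in NaJa-D, 682 to 785 CPM in NaJa-F and 539 to 839 CPM in NaJa-G (-0.43 ± 0.0481 and -0.62 ± 0.0508). The copies Rps12l1 in NaJa-F (0.91 ± 0.196) and Rps3a3 in NaJa-G (0.93 ± 0.138) were higher than in NaJa-D as well.

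The members were then grouped by chromosome, after their values had been seen. All 4 members on chromosome 3, Rpl22l1, Rps3a1, Rps27 and Rpl34, were above their NaJa-D level in both other lines, by a median of 0.67 (NaJa-F) and 0.90 (NaJa-G). The other 730 genes tested on chromosome 3 had medians of 0.40 and 0.43, and 60.3% and 59% of them were higher. All 4 members on the X chromosome, Rpl10, Rps4x, Rpl39 and Rpl36a, were called higher in NaJa-F and NaJa-G against NaJa-D and in NaJa-G against NaJa-F. Their medians were 0.46, 0.73 and 0.36, where the other 436 genes of X had 0.24, 0.48 and 0.25. Of those other genes, 48.4%, 64% and 52.5% were higher.

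On chromosome 5 the members were lower in NaJa-G. Of its 6 members, 4 were lower against NaJa-D and 5 against NaJa-F, and 0 were higher. Among them were Rplp0 (-0.46 ± 0.0843 against NaJa-D), Rpl5 (-0.34 ± 0.0529), Rpl6 (-0.24 ± 0.0638) and Rpl21. The other 1028 genes of chromosome 5 had medians of -0.57 and -0.34, with 62.9% and 60.3% lower. Chromosome 7, which holds 15 members, had a median of -0.10 for them in NaJa-F against NaJa-D, with 3 lower and 1 higher. The other 1006 genes there had -0.27, with 53.4% lower and 12.9% higher. Over the 19 chromosomes with members, the median of the members and that of the other genes had a Spearman rho of 0.61, 0.82 and 0.92 in NaJa-F against NaJa-D, NaJa-G against NaJa-D and NaJa-G against NaJa-F. This is a description over chromosomes with 1 to 15 members each, measured in the same libraries, and its cause was not tested.

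**Figure D5:**
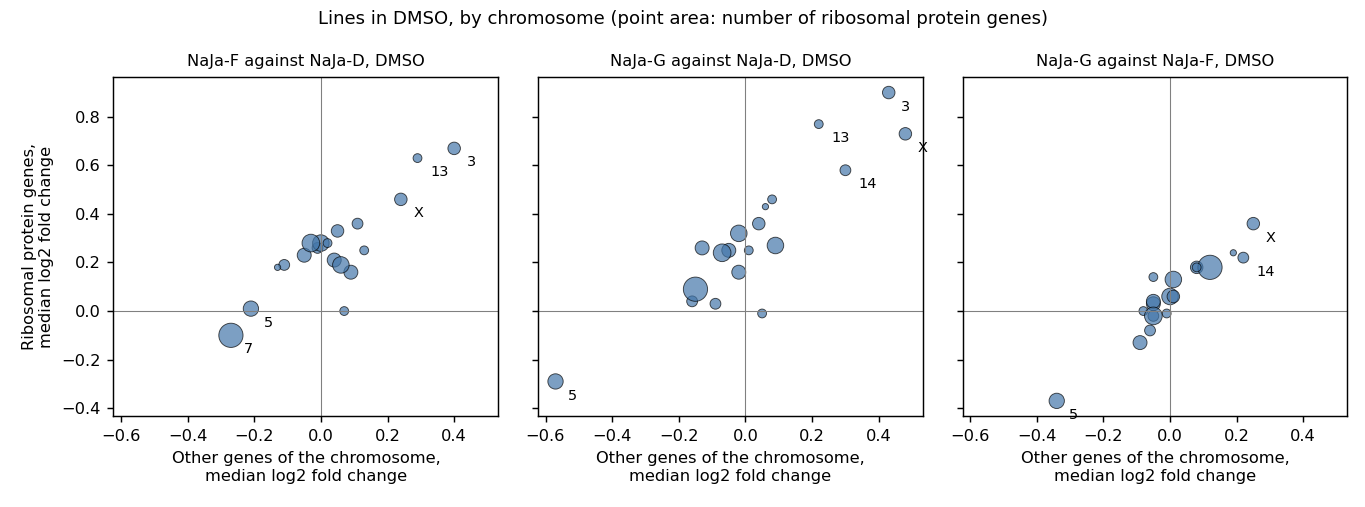
Median log2 fold change of the ribosomal protein genes of a chromosome (y axis) against that of the other tested genes of the same chromosome (x axis), for 3 comparisons of lines in DMSO. Each point is a chromosome, its area the number of ribosomal protein genes, and the outermost chromosomes are named. Chromosomes 3 and X lie at the upper right in NaJa-G against NaJa-D (0.90 and 0.73) and chromosome 5 at the lower left (-0.29).

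The transcripts were also lower at the later day without drug. From day 1 to day 5 in DMSO, 28 (NaJa-D), 15 (NaJa-F) and 45 (NaJa-G) of the 88 fell (all genes 15.3%, 7.01% and 16.8%), and 0 rose in any line (all genes 13.7%, 9.73% and 17.2%). The medians were -0.23, -0.24 and -0.33. All day 5 libraries lay below all day 1 libraries for 53, 82 and 59 genes (all genes 24%, 26% and 27.9%). After the length correction 25, 4 and 28 were lower (all genes 16.6%, 6.36% and 16.7%). Fitting only the groups compared gave 58 in NaJa-F and 3 in NaJa-G, which reverses the order of these 2 lines, with no share of all genes at hand. The share of mitochondrially encoded genes moved with the day, from a mean of 7.09% to 2.47% in NaJa-D, 3.67% to 1.94% in NaJa-F and 4.33% to 1.48% in NaJa-G. The mean log2 length of the counts, those of the 88 genes included, rose, for example from 11.556 to 11.567 in NaJa-F at day 1 to 11.631 to 11.644 at day 5. The part of both in the change over time was not tested. Without NaJa-G DMSO day 5 replicate 1 the count in NaJa-G was 14, and without NaJa-G DMSO day 1 replicate 1 it was 23. Without NaJa-D DMSO day 5 replicate 1 it was 17 in NaJa-D, and without replicate 1 or 2 of NaJa-F DMSO day 1 it was 6 in NaJa-F and without day 5 replicate 2 it was 9.

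Rpl6, a large subunit protein, fell most in NaJa-D, from 1300, 1190 and 1220 CPM to 799, 828 and 967 CPM (-0.52 ± 0.0846), and in NaJa-G from 1230, 1000 and 1010 CPM to 655 and 779 CPM (-0.59 ± 0.0955). Rpl31, at the exit of the peptide tunnel, fell from 282, 277 and 272 to 173, 195 and 215 CPM in NaJa-D (-0.52 ± 0.0731) and by 0.61 on the log2 scale in NaJa-G. Rpl22l1 fell in NaJa-D and NaJa-F (-0.50 ± 0.105 and -0.49 ± 0.0858). Rps19bp1 fell in NaJa-F and NaJa-G (-0.39 ± 0.0833 and -0.66 ± 0.0942). Rpl36al fell in NaJa-F from 92.7, 95.2 and 85.5 to 71.7, 71 and 72.3 CPM (-0.35 ± 0.0717). In NaJa-D, where the day 5 controls were lower, the day 5 encorafenib libraries had 877, 878 and 895 CPM of Rpl6, inside the range of those controls.

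Whether the response itself differed between lines and days was tested as a difference of fold changes. At day 1 NaJa-G and NaJa-D differed in 2 genes (all genes 36.4%), with Rps19bp1 lower and Rps27l higher in NaJa-G. NaJa-F differed from NaJa-D in 9 genes, all less lowered in NaJa-F (all genes 8.79%), and the median difference was 0.35. With the length correction 4 genes were called here. The 9 included Rpl37a, Rpl23, Rps24, Rpl22, Rpl5, Rps27l and Rpl36a. NaJa-G fell further than NaJa-F in 40 genes (all genes 33.5%), with a median of -0.37, and in 23 after the length correction. For response differences, here and below, the counts after the length correction have no share of all genes beside them, so their excess over all genes is not shown. Rps19bp1 (-0.63 ± 0.118), Rps18 (-0.60 ± 0.114) and Rpl6 (-0.60 ± 0.123) differed most. The largest estimates against NaJa-D at day 1 were those of low or shared genes and were not called, such as Rps27rt (0.91 ± 0.297 in NaJa-F) and Rpl24 (-1.17 ± 0.392 in NaJa-G).

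At day 5 NaJa-G fell further than NaJa-D in 37 genes (all genes 21.9%, median -0.46). Against NaJa-F 18 genes were called, all lower in NaJa-G (median -0.27), a share no larger than the 24.2% of all genes. After the length correction 5 and 2 genes differed, with medians of -0.26 and -0.17. Without NaJa-G DMSO day 5 replicate 3 the counts were 17 and 4. Rpl39, a small protein lining the peptide tunnel, was 243 and 237 CPM in NaJa-G DMSO day 5 and 123, 149 and 148 CPM in encorafenib, but 130, 154 and 165 against 152, 151 and 135 CPM in NaJa-D. The 2 responses differed by -0.75 ± 0.15, and NaJa-G and NaJa-F by -0.76 ± 0.159. For Rps21, a protein of small subunit maturation, NaJa-G and NaJa-D differed by -0.74 ± 0.131. NaJa-F and NaJa-D differed in 0 genes at day 5 (all genes 8.85%), where limma-voom gave 13 an unadjusted p below 0.05 (28.1% of all genes) and edgeR and DESeq2 called 0. Rps23 had -0.43 ± 0.12 and Rpsa -0.38 ± 0.168 there, neither called.

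Between the days, the response of NaJa-D was weaker at day 5 in 45 genes (all genes 7.29%), with a median difference of 0.47. After the length correction 8 were called, with a median of 0.32. Rpl37a, at 215, 255 and 242 CPM in DMSO and 222, 212 and 223 CPM in encorafenib at day 5, had a difference of 0.69 ± 0.118, and Rplp1 had 0.64 ± 0.167. In NaJa-G the days differed in 5 genes (31.7%), Rps3a3, Rps21 and Rps27rt (-1.03 ± 0.258) with a deeper fall at day 5 and Rpl7l1 and Rpl6 (0.51 ± 0.127) with a shallower one, and the median was 0.05. In NaJa-F the days differed in 0 genes (5.88%), limma-voom gave 1 gene an unadjusted p below 0.05 (22.8% of all genes), and edgeR and DESeq2 called 0. The day 1 and day 5 responses use separate libraries, while the 3 comparisons of lines at a day share the libraries of each line.

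A single library moved several of the NaJa-D counts. NaJa-D encorafenib day 1 replicate 3 had the highest share of its group, 3.01%, which was still below the 3.50% of the lowest DMSO library. Its share of counts on respiratory chain subunits was 0.78%, beside 0.673% and 0.684% in the other 2, its mean log2 length 11.607 beside 11.661 and 11.636, and its Malat1 level 139.5 CPM beside 444.7 and 369.8 CPM. Without it, 85 genes were lower in NaJa-D day 1, the same number as with it, and their median was -0.68. Leaving it out raised the number that differed from NaJa-F at day 1 from 9 to 71, the number that differed from NaJa-G from 2 to 7, and the number that differed between the days in NaJa-D from 45 to 75. Leaving out any other single library moved these 3 counts within 2 to 10, 1 to 5 and 16 to 52.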

How the data were processed

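RNA of the 3 lines was sequenced, and the authors deposited unnormalized gene counts, made from reads trimmed with Trimmomatic 0.39 and aligned with STAR 2.5.2b to GRCm38. The counter, annotation release and strand setting are not given in the sources used here. All 34 libraries were used, grouped by their titles. No source says that replicates were separate cultures, so p-values measure the spread between libraries. Between replicates the variance was 3.32 to 86.6 times that of counting.

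Symbols, positions and lengths came from GENCODE M21, and transcript starts from RefSeq (GRCm38.p6). Counts were fitted in R 4.3.3 with limma 3.58.1 (voom weights, TMM factors of 0.876 to 1.07 from edgeR 4.0.16, summed count above 2) as a mean for each of 12 groups, two-sided, with an adjusted p below 0.01. The use of voom is not stated by the authors. Alternatives included edgeR quasi-likelihood, DESeq2 1.42.0, limma-trend, other scalings and filters, a lowess correction (span 0.3) for length or GC, the replicate number as a block and leaving out each library. The procedure was tested on simulated data.

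The members and lists were chosen with earlier results of these data known. Genes named were the 3 highest and 3 lowest called genes without overlap in each comparison of treatment, line or day, the 3 largest differences of response, the 3 highest and lowest levels per length, the atypical genes with their partners, and 15 genes of known role (Rplp0, Rplp1, Rplp2, Rpsa, Rps6, Rps3, Rpl5, Rpl11, Rps19, Rps14, Rpl26, Rps27a, Rpl23, Rpl10a and Rpl38). The grouping by chromosome and the genes named only for it were added after the values were seen. Single results of a few genes are not reported here.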

Additional observations from a re-analysis of the deposited data

Results flagged for a closer look

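Listed here are differences of the encorafenib response between lines or days, each tested with limma-voom as an interaction. At day 1 the numbers of ribosomal protein genes whose response differed were 9 (NaJa-F against NaJa-D), 2 (NaJa-G, same reference) and 40 (NaJa-G against NaJa-F), beside 8.79%, 36.4% and 33.5% of all genes, the last led by Rps19bp1 (-0.63), Rps18 (-0.60) and Rpl6 (-0.60, log2 differences). At day 5 NaJa-G differed from NaJa-D in 37 genes, led among called genes by Rpl39 (-0.75) and Rps21 (-0.74), and from NaJa-F in 18, with Rpl39 at -0.76 (21.9% and 24.2% of all genes). Between the days the response differed in 45 genes in NaJa-D, with Rpl37a (0.69) and Rplp1 (0.64), and in 5 in NaJa-G, with Rps27rt at -1.03 (7.29% and 31.7% of all genes). Of these counts, 9 of 88 is near the share of all genes, and 2, 18 and 5 of 88 lie below it. Groups of 2 or 3 libraries were not tested for single outlying libraries.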

How the results depend on the processing

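Counts are of ribosomal protein genes called, of 88. Shares of all genes under the same settings are not given in this section, so no excess over all genes is shown here. Response differences listed without names are not assigned to single comparisons. limma-trend, filterByExpr, the replicate block and leaving out genes annotated as pseudogenes moved no count by over 1.5 times. The smallest summed count of a gene was 360, so the filter at 2 removed no gene, and the setting without a filter repeated the same fit. With the replicate number as a block the encorafenib counts were 84, 0, 6, 4, 76 and 74 (NaJa-D, NaJa-F and NaJa-G, day 1 then day 5), and 40 between the days in NaJa-D. Same-numbered libraries had correlations of -0.156 to 0.215, and the numbers were not taken as pairs.

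The length correction gave 53, 2, 2, 0 and 40 lower in NaJa-D day 1, NaJa-D day 5, NaJa-F day 1, NaJa-F day 5 and NaJa-G day 5, 4 and 29 over time in NaJa-F and NaJa-G, and, for response differences, 4 (NaJa-F against NaJa-D day 1), 5 (NaJa-G against NaJa-D, each day), 23 and 2 (NaJa-G against NaJa-F, day 1 and day 5), 8 and 10 (between days, NaJa-D and NaJa-G). It also turned Rpl26 in NaJa-G day 5 to 0.008. Library size alone gave 26 and 17 in NaJa-F, 9 over time in NaJa-D, and response differences of 4, 1, 14, 63, 34 and 10, in which the median of all genes moved by up to 0.177. Fitting only the groups compared gave 37 and 29 in NaJa-F, 58 and 3 over time in NaJa-F and NaJa-G, and 2, 4 and 3 for differences. An adjusted p below 0.05 gave 5 in NaJa-D day 5, 31 and 28 for NaJa-F, 35 for NaJa-G against NaJa-F, 46 and 39 over time in NaJa-D and NaJa-F, and differences of 45, 2, 8, 62, 32, 71 and 14. Asking also for a log2 change of 0.5 or more in size gave 54, 1, 0 and 41 in NaJa-D day 1, NaJa-F day 1, NaJa-F day 5 and NaJa-G day 5, 11, 18 and 0 between lines, 3, 0 and 8 over time, and differences of 1, 1, 24, 6, 9, 23 and 3. Response differences were 18 and 4 with DESeq2, 4 with edgeR, 4 and 8 with a GC correction, 11 and 3 with RLE, 15 with TMM without these genes, 15 and 1 with upper quartile scaling (11 in NaJa-F day 5), and 0 and 3 for standard genes only. Adding -ps genes gave 141 in NaJa-G day 5 and 24 between its days. Day 1 alone gave 11 for NaJa-G against NaJa-F, and day 5 alone 13, with 34 against NaJa-D. The cause of these moves was not tested.

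Leaving out single libraries gave 78 to 85, 0 to 0, 1 to 4, 0 to 6, 72 to 80 and 50 to 74 for encorafenib, 41 to 51, 46 to 61 and 16 to 24 between lines, and 17 to 37, 6 to 12 and 14 to 57 over time. NaJa-F day 5 had 0 without encorafenib replicate 1. The differences between lines ranged over 2 to 71, 1 to 7 and 20 to 45 at day 1 (NaJa-F and NaJa-G against NaJa-D, NaJa-G against NaJa-F) and 0 to 2, 17 to 47 and 4 to 24 at day 5, and between days over 16 to 75, 0 to 0 and 2 to 6. Without NaJa-G DMSO day 5 replicate 3, NaJa-G differed at day 5 from NaJa-D in 17 genes and from NaJa-F in 4. Of the named genes' values under all settings, 4109 kept their side of the threshold, 108 lost it, 59 gained it and 1 turned.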
